A study of Mus musculus with 2 samples.

Results

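The perilesional rim at 28 days is the strip of tissue that borders the phagocyte-rich core of the lesion in a coronal mouse brain section taken 28 days after controlled cortical impact (CCI). It held 10211 of the 103316 bins of the section with at least 100 unique molecular identifiers (UMIs), which is 9.88% of them and 2.61 mm² of tissue. The whole series held 227556 bins. A bin is a square of tissue of 16 µm that can hold parts of several cells. Its bins were chosen by distance from the core, and the core was selected on measured values, as bins whose surrounding block of 5 by 5 bins had at least 700 CPM (UMIs scaled to a total of 1000000) summed over the phagocyte genes Cd68, Lyz2, Ctsz, Lgals3, Cd52 and Laptm5, on the injured side and in a connected patch of at least 400 bins. The rim was then every bin outside the core on that side within 16 bins (256 µm) of a core bin. The rim reflected across column 240 of the array, close to the midline, served as the reference and is called the mirror rim.

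In CCI a mechanical impactor is driven into the cortex of an opened skull, which leaves a focal contusion. The series held 2 samples, each a 10 µm section from a single male C57Bl6 mouse aged 3 months at the impact, taken 3 days or 28 days later from brains that were fixed by perfusion with paraformaldehyde and embedded in paraffin. No section of an uninjured animal was analysed here, so the reference was the opposite side of the same injured brain. Counts came from Visium HD, in which probes bound to transcripts of fixed tissue are captured on a slide of barcoded squares and sequenced. With 1 section per time point there was no replicate, no difference was tested, and every interval given here is a 95% interval that covers counting error only.

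Around a focal brain injury, astrocytes enlarge, raise intermediate filament proteins and form a border that separates the phagocyte-filled lesion from the surrounding neural tissue. Microglia, the resident phagocytes of the brain, can pass from a homeostatic state into a reactive state called disease-associated microglia (DAM), in which lysosomal and lipid-handling genes rise and homeostatic genes fall. Complement proteins, which tag synapses and debris for removal, and interferon-stimulated genes, which are switched on by interferon signalling, are known to rise in reactive glia.

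The core comprised 10104 bins in 2 patches of 8853 and 1251 bins. Quartiles of the array row cut the rim into 4 segments, from segment 1 at the lowest rows to segment 4 at the highest. The 4 segments held 2581, 2528, 2601 and 2501 bins. The mirror rim held 8353 bins, fewer than the rim because 1742 rim bins reflected beyond the edge of the capture array and others fell on empty ground. Depth was close over the whole areas, with a median of 498 UMIs per bin in the rim and 530 in the mirror rim and totals of 6932235 and 6006084 UMIs. It was less even by segment, with medians of 321, 466, 609 and 867 UMIs per bin in segments 1 to 4. Their reflections had 386, 643, 338 and 919.5.

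**Figure D1:**
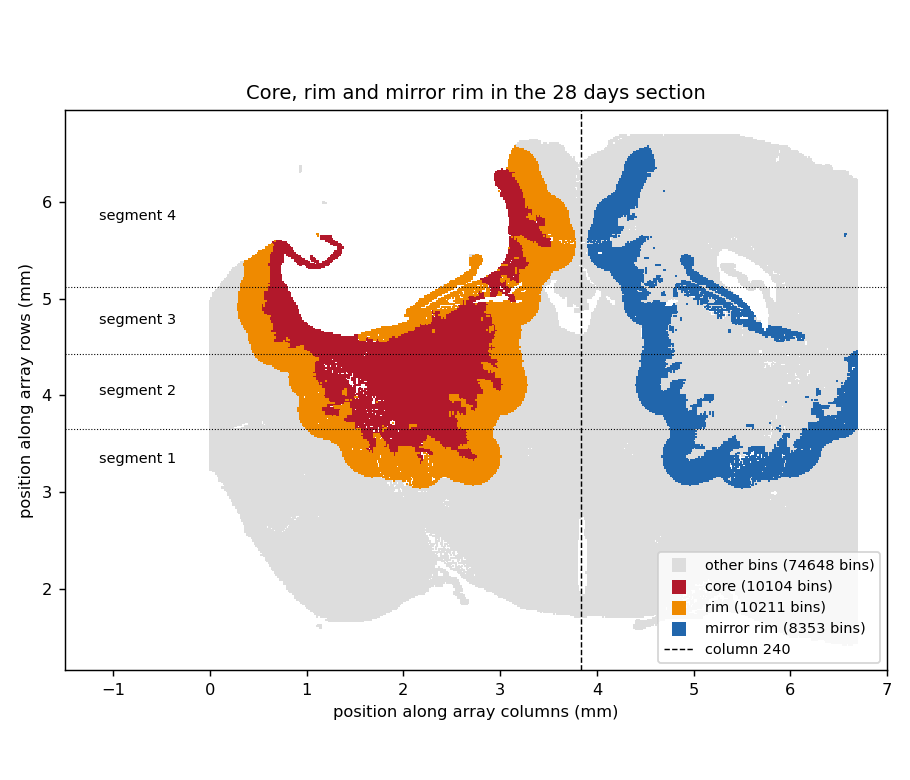
Map of the 28 days section, with array columns and rows in mm and each point a 16 µm bin. The 10211 rim bins (orange) border the core (red), the 8353 bins of the mirror rim (blue) lie across column 240 (dashed line), and dotted lines separate the 4 row segments.

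The 6 genes that placed the core are a description of the rule and not a finding. Their summed level was 3469 CPM in the core, 240 CPM in the rim and 72.8 CPM in the mirror rim. On either side of the border between core and rim, the outermost 2 bins of the core had 1999 CPM and the first 2 bins of the rim 460 CPM. On either side of the outer limit, the last 2 bins of the rim had 140 CPM and the next 2 bins 139 CPM, so the outer limit is set by distance and not by a step in these genes. Of the rim bins, 546 reached the threshold in patches too small to count as core, and 112 bins of the mirror rim reached it. Genes of the same phagocytes are high near the core and bounded in the rim by the rule, so their ratios are also descriptions.

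Region markers were unequal between the rim and the mirror rim. For the thalamic and hippocampal lists anatomy and injury cannot be told apart. The choroid plexus list (11 genes) summed to 18159 CPM in the rim and 2279 CPM in the mirror rim, the thalamic list (10 genes) to 1047 and 1518 CPM, and the hippocampal list (13 genes) to 876 and 1571 CPM. Bins rich in myelin genes, which lay at or above the level of the upper 15% of opposite-side bins, made up 14.4% of the rim and 23.4% of the mirror rim. A lower level over bins of mixed tissue cannot tell fewer cells of a type from less RNA per cell, and a higher level cannot tell more cells from more RNA per cell.

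Of 11140 genes with at least 100 UMIs over both areas, the 6 left out, 417 (3.74%) were at least 2-fold higher in the rim and 39 (0.35%) at least 2-fold lower. The median log2 ratio of rim to mirror rim over all genes was 0.02. Higher by 2-fold and above 0 in all 4 segments were 298 genes (2.68%), and lower by 2-fold and below 0 in all 4 segments were 14 genes (0.126%). Taken alone, segments 1 to 4 had 4.79%, 5.48%, 3.87% and 7.8% of genes at least 2-fold higher than their reflections and 1.58%, 0.943%, 2.99% and 1.25% at least 2-fold lower. A total of 57 genes (0.512%) were at least 2-fold higher in each of the 4 segments against its own reflection, and none was at least 2-fold lower in each. For 36 of the 57 the interval lay above 0 in every segment, and for 48 the fold stayed at 2 or more when reflections with fewer than 3 UMIs were set to 3.

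The 12 highest ratios by the rule used here, among genes with at least 200 UMIs and the same sign in all segments, were Cst7, Cox8b, Steap1, Aqp1, Tmem72, Krt18, A2m, Kl, Rbm47, Ttr, Mfrp and Ecrg4. Kl and Ttr are in the choroid plexus list and Cst7 in the DAM list, and the others are in none of the gene lists. Ttr, which encodes the thyroid hormone carrier transthyretin and is the most abundant choroid plexus transcript, had 16116 CPM in the rim and 1880 CPM in the mirror rim. All 11 choroid plexus genes were at least 2-fold higher, with a median log2 ratio of 2.81. Their excess lay in the upper rows, with medians of 0.26, 0.12, 1.27 and 6.60 in segments 1 to 4, and away from the core, with a median of -1.84 in the first 64 µm and 5.94 in the last.

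Counts over the whole rim were therefore also taken without choroid bins, those whose block of 5 by 5 bins had at least 200 CPM over 9 choroid plexus genes (1112 bins of the rim and 322 of the mirror rim). Then 204 of 10826 genes (1.88%) were at least 2-fold higher and 41 (0.379%) at least 2-fold lower. The log2 ratio of Ttr was 0.24 (0.06 to 0.43). The 12 highest were Cst7, Gfap, Baiap3, C3ar1, Tlr2, Serpina3n, Lag3, Tyrobp, Spp1, Csf3r, Lgals3bp and Fcer1g, of which Gfap and Serpina3n are known from reactive astrocytes and most others from microglia. Baiap3 had a log2 ratio of -1.19 when all bins of the opposite side were the reference. Of the 57 genes above, 43 stayed at least 2-fold higher in every segment without choroid bins.

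Gfap, the intermediate filament of reactive astrocytes, had 9307 UMIs in the rim and 1217 in the mirror rim. Its level was 1343 CPM (1315 to 1370) against 203 CPM (191 to 214), a log2 ratio of 2.73 (2.64 to 2.82). In segments 1 to 4 it had 1450, 1668, 1353 and 1122 CPM, while the reflected segments had 187, 37.4, 488 and 186 CPM. All rim segments lay above all reflected segments, and the unequal ratios (2.95, 5.46, 1.47 and 2.59) came with unequal reference levels. When bins were thinned to 300 UMIs, which left 7388 bins of the rim and 6172 of the mirror rim (2823 and 2181 shallower bins left out), 29.6% of the rim bins (28.6 to 30.7%) and 4.76% of the mirror bins (4.25 to 5.32%) held a Gfap UMI. Without thinning the shares over all bins were 45.5% and 10.9%.

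The reactive astrocyte list had 16 of 28 members measured, of which 9 were at least 2-fold higher, against 3.74% of all genes, and none lower, with a median of 1.33. The 12 members below the minimum held 355 UMIs in the rim and 146 in the mirror rim in all. Serpina3n, a secreted protease inhibitor, had 181 CPM in the rim and 34.8 CPM in the mirror rim, a log2 ratio of 2.37 (2.16 to 2.59). Vim, a further intermediate filament, had 2.07 (1.92 to 2.23), the calcium-binding S100a6 1.88 (1.53 to 2.27) and the oncostatin M receptor Osmr 1.97 (1.29 to 2.77). Members at the other end were Amigo2 at -0.83 (-1.02 to -0.64) and the glucocorticoid-induced Fkbp5 at -0.67 (-0.95 to -0.40). Of the 11 members with at least 50 UMIs in the mirror rim, 4 were at least 2-fold higher, against 1.88% of all genes under the same minimum (200 of 10658). Without choroid bins 6 of 14 were higher and 1 lower, against 1.88% and 0.379% of all genes.

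Genes of resting astrocytes were mostly within 2-fold of the reference. All 20 members of the homeostatic astrocyte list were measured, 1 was at least 2-fold higher, a share near the 3.74% of all genes, and the median was 0.16. The member was Aqp4, the water channel of astrocyte endfeet, at 430 CPM in the rim, 175 CPM in the mirror rim and a ratio of 1.30 (1.20 to 1.40). The glutamate transporters Slc1a2 and Slc1a3 had 0.26 (0.22 to 0.30) and 0.49 (0.40 to 0.58). Glul, which makes glutamine, had -0.08 (-0.16 to 0.01) and the potassium channel Kcnj10 -0.17 (-0.29 to -0.05), so the list moved far less than Gfap, Vim and Serpina3n.

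All 10 measured members of the 16 complement genes were at least 2-fold higher, against 3.74% of all genes, with a median of 1.96. So were all 7 members with at least 50 UMIs in the mirror rim, against 1.88% of all such genes. Segment 3 was lower, with a median of 0.80 and 3 of the 10 at 2-fold, against 8, 9 and 10 in segments 1, 2 and 4. The chains of the initiator C1q had nearly equal log2 ratios, 1.95 (1.81 to 2.09) for C1qa, 1.99 (1.81 to 2.17) for C1qb and 1.98 (1.64 to 2.35) for C1qc. C4b, the next component of that pathway, had 435 CPM in the rim and 111 CPM in the mirror rim. C3, on which the complement pathways converge, had 150 UMIs in the rim and 12 in the mirror rim, a log2 ratio of 3.38 (2.59 to 4.42).

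The receptor for the C3a fragment, C3ar1, stood at 2.67 (2.10 to 3.34). Inhibitors were higher as well, Serping1 by 1.77 (1.22 to 2.38) and Clu by 1.26 (1.22 to 1.31). The inhibitor Cd59a had 1.25 with all bins. Without choroid bins it had -0.17 and fell below the minimum, while the other 9 members stayed at least 2-fold higher. The 6 members below the minimum with all bins held too few UMIs for a ratio.

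Among the DAM genes 10 of 17 measured members were at least 2-fold higher, against 3.74% of all genes, with a median of 1.27. The count was the same without choroid bins, against 1.88% of all genes there. Cst7, which encodes the protease inhibitor cystatin F, had the highest ratio of any named gene, 322 UMIs in the rim against 9 in the mirror rim and a log2 ratio of 4.88 (4.01 to 6.10). In segments 1 to 4 it had 63, 143, 77 and 39 UMIs, and in the reflected segments 1, 1, 4 and 3. Tyrobp, a signalling adaptor of microglial receptors, had 2.18 (1.96 to 2.41), its partner Trem2 1.47 (1.08 to 1.90) and the secreted phosphoprotein Spp1 2.19 (1.88 to 2.52). Apoe, the main lipid carrier of the brain, had 7019 CPM in the rim and 3110 CPM in its mirror, and its ratio was 1.17 (1.15 to 1.20). Lipoprotein lipase Lpl (0.01), the ferritin heavy chain Fth1 (-0.13) and Ank (-0.04) were near 0, so the list did not move as a block.

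The homeostatic microglia genes were not lower in the rim as levels summed over bins. More microglia in these bins and a higher level per cell cannot be told apart here. Of 13 measured members 4 were at least 2-fold higher and none 2-fold lower, against 3.74% and 0.35% of all genes, and the median was 0.61. Among them were Fcrls at 1.88 (1.63 to 2.14), the growth factor receptor Csf1r at 1.05 (0.86 to 1.24) and Tmem119 at 1.03 (0.63 to 1.46). The purinergic receptor P2ry12 had 0.56 (0.18 to 0.96) and Selplg -0.11 (-0.59 to 0.38). Tmem119 had 23.9 CPM in the rim, 11.7 CPM in the mirror rim and 48.4 CPM in the core.

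Further microglial genes were chosen after their values were seen, from the 57 genes (0.512% of all genes) at least 2-fold higher in every segment. Their high ratios are therefore a description of that choice. The innate receptor Tlr2 had log2 ratios from 1.85 in segment 3 to 2.70 in segment 1 and a higher one in segment 2, and Fcer1g, a signalling chain of Fc receptors, had 1.59, 2.99, 1.77 and 1.75 in segments 1 to 4. Spi1 and Irf8, transcription factors of the myeloid lineage, were at 2.04 (1.45 to 2.72) and 1.87 (1.46 to 2.32) over the whole rim. The lysosomal proteases Ctss and Ctsd had 1.79 (1.60 to 1.98) and 1.48 (1.34 to 1.64). These are genes of the cells whose markers placed the core, and their part in the rule cannot be told apart from the rim itself.

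Lymphocyte, monocyte and macrophage genes were sparse. The T and B cell list had 1 of 14 members measured, Ighm, and summed to 131 CPM in the rim and 116 CPM in the mirror rim. Its 13 members below the minimum held 151 and 125 UMIs. The monocyte and macrophage list had 1 of 15 members measured, Fabp5, and summed to 219 and 210 CPM. Its 14 members below the minimum were higher in the rim, with 228 UMIs against 70 in the mirror rim. Most of each sum came from the measured member, so the sums say little about the other members.

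Antigen presentation genes had 12 of 15 members measured, 9 of them at least 2-fold higher against 3.74% of all genes, with a median of 1.29. Of the 7 with at least 50 UMIs in the mirror rim 4 were, against 1.88% of all such genes. For class I, B2m had 394 UMIs against 117, a log2 ratio of 1.54 (1.24 to 1.86), H2-D1 1.54 (1.06 to 2.06) and the immunoproteasome subunit Psmb9 1.87 (1.30 to 2.53). H2-D1 and H2-K1 are closely related in sequence, and whether their probes tell them apart was not tested. For class II, Cd74, the invariant chain, had 41.98 CPM in the rim and 12.15 CPM in the mirror rim. It had 36.2, 51.3, 46.1 and 36.1 CPM in rim segments 1 to 4, and 1.63, 1.39, 60.9 and 2.61 CPM in their reflections. Segment 3 was therefore not higher than its reflection (-0.40, -0.88 to 0.08), while the other 3 had log2 ratios of 3.69 to 4.90. The class II genes H2-Aa, H2-Ab1 and H2-Eb1 were likewise below 0 in segment 3 and above 2 in the others.

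Interferon-stimulated genes were higher but thinly counted. Of 18 members 10 were measured, of which 8 were at least 2-fold higher, against 3.74% of all genes, with a median of 1.76. Of the 4 members with at least 50 UMIs in the mirror rim 2 were, against 1.88% of all such genes. Ifi27l2a had 137 UMIs against 13, a log2 ratio of 3.14 (2.37 to 4.14), Bst2, a tether of enveloped viruses, 280 against 45 and 2.42 (1.97 to 2.92), and the ubiquitin-like modifier Isg15 86 against 14 and 2.37 (1.59 to 3.34). The segments were uneven. Of the 86 Isg15 UMIs of the rim 45 lay in segment 3, and of the 137 of Ifi27l2a 74 did. With segment 3 left out, 5 of the 10 members had a ratio of at least 2-fold (median 1.26), and with rim bins lacking a reflected bin left out 7 did (median 1.33). Only 5 members kept 100 UMIs in either case, and 2 of those were at least 2-fold higher.

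The promoters of 3 of these genes hold the letters of the interferon-stimulated response element, the short motif bound by interferon regulatory factors, and are shown because that motif is known from genes of this list. The motif searched was GAAA, then any 2 bases, then GAAA, on both strands, in windows from 250 bases before to 50 bases after each gene start, with RefSeq sequence of build GRCm38.p6. Of the 18 list members 12 had a window, and 9 of these (75%) held the motif, against 1079 of 27025 genes (3.99%) in the whole table. Of the 6 measured members with a window, 3 held it. Matched letters are in capitals, overlapping matches are merged, each stretch is written 5′ to 3′ along the gene's strand, and all of them lie before the gene start.
Isg15 (chr4:156200855-156200916, minus strand): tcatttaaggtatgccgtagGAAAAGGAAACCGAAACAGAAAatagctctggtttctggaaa
Bst2 (chr8:71537567-71537622, minus strand): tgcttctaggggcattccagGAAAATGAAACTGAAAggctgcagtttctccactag
Ifit3 (chr19:34583353-34583436, plus strand): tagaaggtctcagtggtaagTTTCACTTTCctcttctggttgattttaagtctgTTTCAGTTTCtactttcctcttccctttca
Isg15 and Bst2 hold the motif on the strand of the gene, and Ifit3, with a log2 ratio of 1.09 (0.75 to 1.44), holds it on the opposite strand. A match is a description of these letters only.

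The ratios of several glial lists were lower further from the core. Cut into bands of 64 µm, the rim had median log2 ratios for complement of 2.45, 2.10, 1.77 and 1.21 from the innermost to the outermost band, and 1.25 and 0.83 at 16 to 24 and 24 to 32 bins from the core, outside the rim. The reactive astrocyte list went from 1.91 in the first band to 0.97, 0.52 and 0.63. The DAM list, whose cells were used to place the core, went from 1.65 in the first band to 0.71 in the last. The complement list also holds genes of microglia, such as C3ar1. The part of the core rule in the complement gradient was not tested. Over all genes the median lay at most 0.04 from 0 in each band, 4.19%, 4.42%, 5.48% and 4.69% of genes were at least 2-fold higher and 1.35%, 0.745%, 1.4% and 1.17% at least 2-fold lower. The interferon-stimulated list showed no such order, with 1.99, 1.81, 0.98 and 1.83. The share of myelin-rich bins fell over the same bands, from 25.1% to 6.24%, against 25.7% to 18.2% in their reflections, and its part in the gradients was not tested.

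Gfap had 3358 CPM in the first 32 µm of the rim and 655 CPM in the last, while the reflected bins had 224 and 157 CPM. Serpina3n fell more steeply, from 673 to 52.1 CPM, and its last step had a log2 ratio of 0.31 against 2.05 for Gfap. The reflected bins of that step had 41.8 CPM of Serpina3n. Beyond the rim its ratio was -0.13 in the next 32 µm. Further out it was 1.20 and 1.56 in the steps centred 304 and 336 µm from the core. There the reflected bins had 21.2 and 10.9 CPM. In the step centred at 496 µm the Serpina3n ratio was 0.77. Aqp4 fell from 879 to 249 CPM and C4b from 1101 to 159 CPM. Neither Gfap nor C4b showed a step at the outer limit of the rim, with 632 and 182 CPM in the next 32 µm, and Gfap was still at 336 CPM against 75.2 CPM in the last step measured, centred 496 µm from the core. The gradient of Gfap therefore ran past the rim and did not end at its edge.

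**Figure D2:**
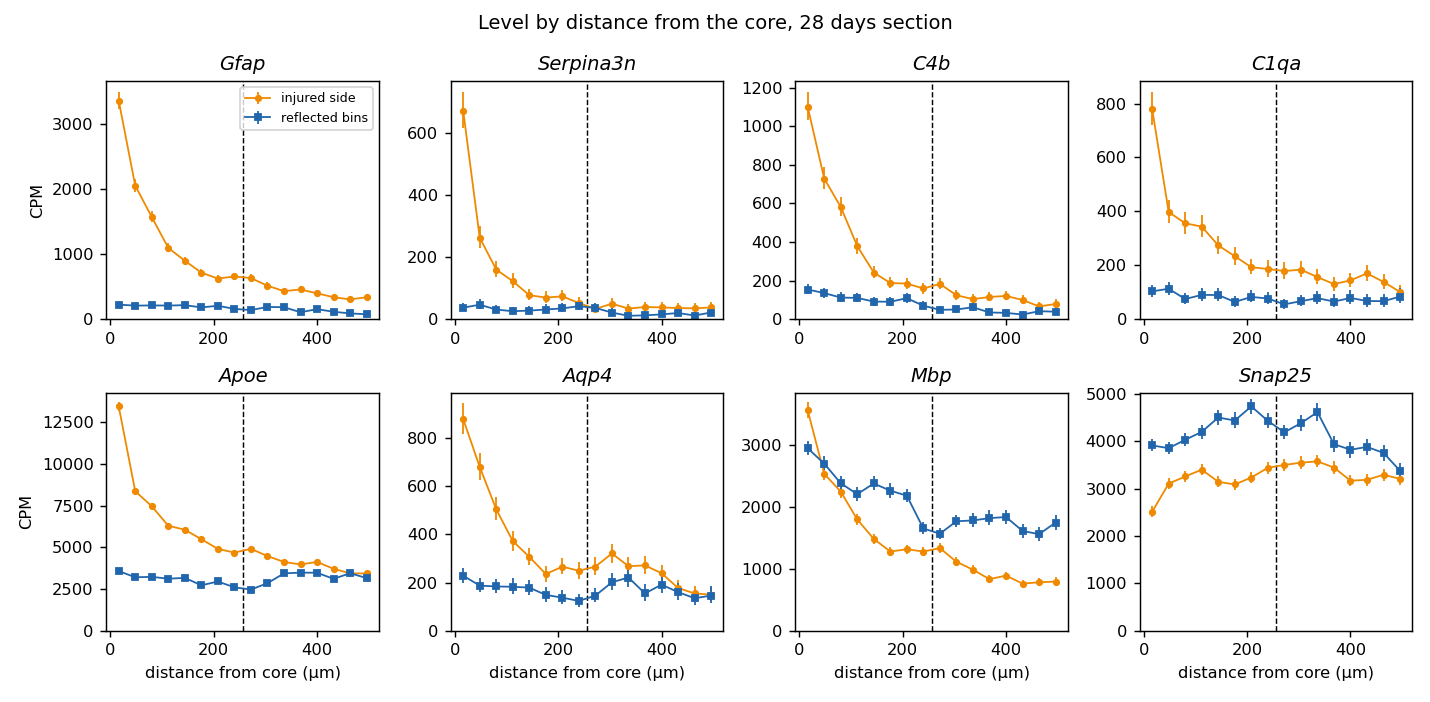
Level in CPM (y axis, linear from 0) by distance from the nearest core bin in µm (x axis) for 8 genes, in steps of 32 µm on the injured side (orange) and in the reflected bins (blue), with 95% Poisson intervals. The dashed line marks the outer limit of the rim at 256 µm. Gfap falls from 3358 to 655 CPM across the rim and stays above its reflection beyond it, whereas Snap25 is lower than its reflection at each step.

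The levels of these glial genes in the rim lay between those of the core and the mirror rim. Of the 417 genes at least 2-fold higher than in the mirror rim, 296 had a higher level in the core than in the rim. Over all 11140 genes the median log2 ratio of rim to core was 0.15. The rule placed the core where phagocyte genes were high. For genes of the same cells, some complement genes among them, a higher level in the core is therefore a description. Gfap had 6230 CPM in the core, C4b 1679 CPM and Cst7 599 CPM. The complement list had a median log2 ratio of 4.59 in the core over its own reflection, and the reactive astrocyte list 4.34. Over all genes 11.1% were at least 2-fold higher and 14.1% at least 2-fold lower in the core than in its reflection, against 3.74% and 0.35% for the rim. Set against the core itself, the rim had 13% of genes at least 2-fold higher and 6.97% at least 2-fold lower.

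Neuronal genes were lower by less than in the core. None of the 18 pan-neuronal genes was 2-fold lower in the rim, with a median log2 ratio of -0.28, whereas the median was -1.88 in the core. Without choroid bins the rim median was -0.16. With all bins 5 of the 18 were below 0 in all 4 segments, against 8.07% of all genes. Snap25, a component of the vesicle fusion machinery, had 3155 CPM in the rim, 4238 CPM in the mirror rim and 923 CPM in the core. Its log2 ratio was -0.43 (-0.45 to -0.40), below 0 in segments 1, 2 and 4 and 0.44 in segment 3. The lowest member was the heavy neurofilament Nefh at -0.88 (-1.02 to -0.75), which was below 0 in all segments, followed by Nefm at -0.58 and Nefl at -0.54. Gap43, a growth cone protein, had 0.16 (0.07 to 0.25). Of the 13 measured genes of the neuronal injury list none was 2-fold higher or lower, against 3.74% and 0.35% of all genes. Without choroid bins 1 of 13 was at least 2-fold higher, against 1.88% of all genes. The 5 members below the minimum held 195 UMIs in the rim and 102 in the mirror rim.

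Genes known from the striatum were among the lowest. The 12 lowest genes by the rule were Scn4b, Lrrc10b, Wipf3, Nexn, Bok, Syndig1l, Adora2a, Pde10a, Acvr1c, Onecut2, Mvd and Epha4. Scn4b, a sodium channel subunit, had 95.4 CPM in the rim and 244 CPM in the mirror rim, a log2 ratio of -1.35 (-1.49 to -1.22), and was below 0 in all 4 segments. Adora2a and Pde10a are known from the striatum, and 9 striatal genes chosen after these values were seen had a median of -0.85. Over the whole rim 3 of the 9 were at least 2-fold lower, against 0.35% of all genes. In bands 1, 2 and 3 from the core 6, 8 and 6 were, against 1.35%, 0.745% and 1.4% of all genes. Their median was 0.56 in segment 4 and 0.56 in the outermost band. In that band 4 of the 9 were at least 2-fold higher, against 4.69% of all genes. The calcium-binding protein Pvalb had -1.27 (-1.36 to -1.19) over the rim, from -2.36 in segment 1 to 1.13 in segment 3. Anatomy and injury cannot be told apart for these genes.

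Myelin genes were near the reference. None of the 18 was 2-fold higher or lower, the median was -0.17, and medians ran from -0.76 in segment 3 to 0.58 in segment 4. Mbp had 1918 CPM in the rim and 2377 CPM in the mirror rim. In the precursor and differentiation list 1 of 17 genes was at least 2-fold higher, a share near the 3.74% of all genes, and 0 of 16 were without choroid bins. The 1 was the signalling protein Bmp4 at 1.77 (1.15 to 2.49), which fell below the minimum without choroid bins (63 and 21 UMIs), and Gpr17, a receptor of committed precursors, had 0.75 (0.43 to 1.09).

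All 15 cholesterol synthesis genes were below 0 and none reached 2-fold, with a median of -0.44, while 46.5% of all measured genes were below 0. The interval lay below 0 for 12 of them, as it did for 1955 of the 11140 genes, 16 of the 18 pan-neuronal genes and 13 of the 18 myelin genes. Of the 15 cholesterol genes 9 were below 0 in all 4 segments, against 8.07% of all genes. Mvd had -0.94 (-1.33 to -0.57), Idi1 -0.84 (-1.23 to -0.46) and Insig1, a regulator that retains the pathway's activator in the endoplasmic reticulum, -0.66 (-0.80 to -0.52). The median was -0.95 in the core. Without choroid bins the rim median of the cholesterol genes was -0.50. There 1 of the 15 was at least 2-fold lower, against 0.379% of all genes. Without choroid bins 2 of 15 measured lipid handling genes were at least 2-fold higher and 1 lower, against 1.88% and 0.379% of all genes. With all bins 4 of 16 were at least 2-fold higher, against 3.74% of all genes. Among the 4 were Apoe, the cholesterol exporter Abca1 at 1.29 (1.11 to 1.49) and the lipid droplet protein Plin2 at 1.43 (0.80 to 2.15), which fell below the minimum without choroid bins (66 and 25 UMIs). Pan-neuronal and myelin genes had medians of -0.28 and -0.17, in the same direction, and their part in the cholesterol values was not tested.

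Matrix genes were mixed. Of 22 measured members of the matrix and scar list 7 were at least 2-fold higher and 1 lower, against 3.74% and 0.35% of all genes. The median was 0.38. Of the 17 with at least 50 UMIs in the mirror rim 3 were higher, against 1.88% of all such genes. Without choroid bins 4 of 20 were higher and 1 lower, against 1.88% and 0.379% of all genes there. Markers of fibroblasts and meninges moved with them, 6 of 9 measured at least 2-fold higher, against 3.74% of all genes. Their median was 1.34 (3.12 in segment 4), and they summed to 1824 CPM in the rim and 713 CPM in the mirror rim. Without choroid bins 1 of 8 was higher, against 1.88% of all genes. Of 10 mural genes 4 were at least 2-fold higher, against 3.74% of all genes, and 1 without choroid bins, against 1.88%. The part of these cells in the matrix values was not tested. The matricellular genes Ccn2 and Thbs2 had 2.35 (1.84 to 2.92) and 1.81 (1.18 to 2.55). The proteoglycans of the glial scar were near 0, Bcan at 0.04 (-0.08 to 0.16), Ncan at -0.27 (-0.49 to -0.06) and Vcan at 0.22 (-0.30 to 0.76), while Acan of the perineuronal net, with 35 UMIs against 83, had -1.44 (-2.07 to -0.87). Endothelial genes had a median of 0.16, with 1 of 13 at least 2-fold higher, a share near the 3.74% of all genes (Vcam1, 1.11 with all bins and 0.33 without choroid bins).

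**Figure D3:**
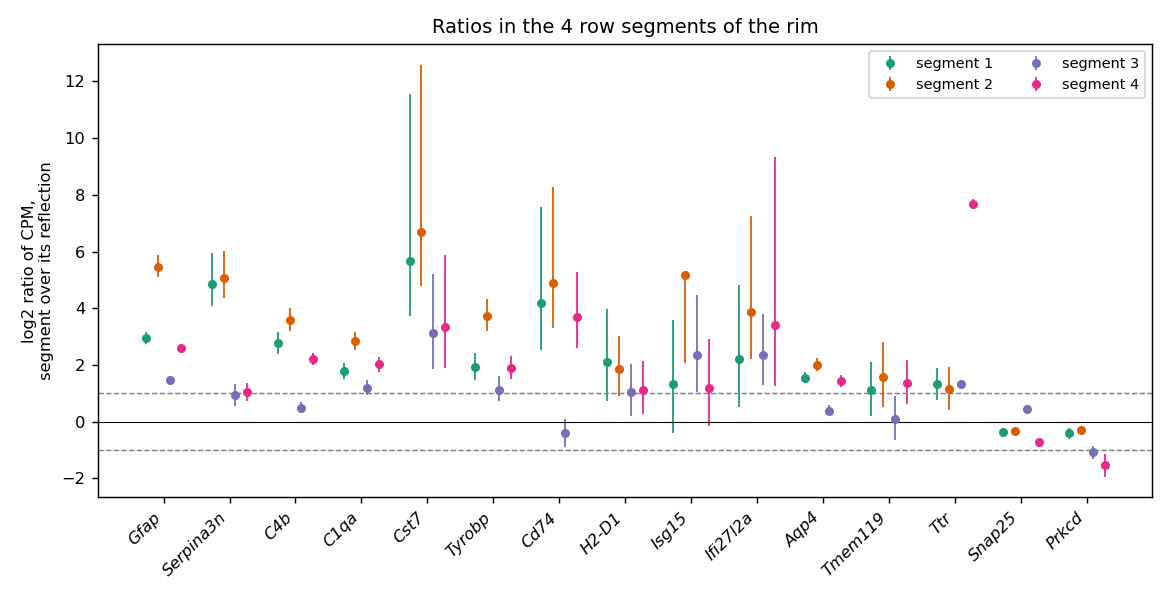
Log2 ratio of CPM of each row segment of the rim over its own reflection (y axis) for 15 genes (x axis), with 95% exact conditional binomial intervals of counting error. Upper bars are left out where the reflection held 0 UMIs. Gfap, C1qa and Cst7 lie above the upper dashed line of 2-fold in all 4 segments, Cd74 does not in segment 3 (-0.40), and Ttr reaches its largest ratio in segment 4.

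At 3 days the same rule, applied to the largest patch, gave a rim of 11161 bins around a core of 7506 bins. That rim was not set against a reflection, it crosses other tissue (the thalamic gene Prkcd had 69.9 CPM there and a higher level at 28 days), and it comes from another animal, so levels are given side by side only. Vim had 1407 CPM at 3 days and 274 CPM at 28 days, Serpina3n 612 and 181 CPM, Gfap 2065 and 1343 CPM and Isg15 58.6 and 12.4 CPM. Cst7 had 4.97 CPM at 3 days and 46.5 CPM at 28 days, and Apoe 2670 and 7019 CPM. C4b was close in both, with 426 and 435 CPM.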

How the data were processed

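The authors deposited raw UMI counts of each gene in each 16 µm bin, without normalization. The file headers name version 4.0.1 of Space Ranger, and the submitters' processing notes name build mm10. The deposited counts were used as they stand, with bins under 100 UMIs left out. A probe count measures hybridisation, so levels were compared between areas and not between genes. UMIs were summed over each area and scaled to CPM. Ratios are log2 after 0.5 UMI was added to each sum, and a gene counted as measured from 100 UMIs in the areas together. Intervals are exact conditional binomial for ratios, Poisson for CPM and Clopper-Pearson for shares of bins, all at 95%. They take UMIs as independent, and neighbouring bins are not. No p-value was computed.

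The members, the 31 gene lists and the named genes were chosen with earlier results of these data known. Named were the 12 highest and 12 lowest genes with at least 200 UMIs and the same sign in all 4 segments, and up to 4 members of each list (highest, lowest, most UMIs). Other genes in the text were chosen after their values were seen, among them members of the lists, a set of 9 striatal genes, microglial surface genes and the 12 highest without choroid bins. Cx3cr1 was not analysed here, and Clec7a is outside the probe set per the study's methods. Alternatives were other scalings, minimums, pseudocounts, core thresholds, rim widths, distances, reflection columns, reference areas and myelin strata, and each segment left out. The methods were tested on simulated data. Scripts ran in R 4.3.3 with edgeR 4.0.16 (TMM scaling) and in Python 3.11.15 with scipy 1.17.1, numpy 2.4.6, pandas 2.3.3 and matplotlib 3.10.9. A few list members are not reported here by name.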

Additional observations from a re-analysis of the deposited data

How the results depend on the processing

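The count of 417 genes at least 2-fold higher in the rim became 947 with a minimum of 20 UMIs per gene, 210 with a rim of 8 bins, 14 in myelin-rich bins (where 1930 genes were measured), 258 without segment 4, and, in alternatives added after the data were seen, 204 without choroid bins, 200 with at least 50 UMIs in the mirror rim and 122 in segments 1 and 2 alone. The count of 39 lower genes became 90 with 20 UMIs, 75 against all bins of the opposite side, 24 with the reflection column moved left, 14 in myelin-rich bins and 13 in segments 1 and 2 alone. The count of 417 also became 306 with the reflection column moved left and 330 with it moved right. It became 289 without rim bins at 350 CPM or more of the 6 genes, and 542 against all bins of the opposite side. Settings not named for a count did not always leave that count unchanged. In each alternative a list member below the minimum leaves the count whatever its ratio. Complement (10 genes) became 2 in myelin-rich bins and 6 in segments 1 and 2 alone. Without that minimum, 8 and 9 of the 10 were at least 2-fold higher in segment 1 and in segment 2 taken singly. Reactive astrocyte (9) became 14 with 20 UMIs, 4 without rim bins at 350 CPM or more of the 6 genes, 3 in myelin-rich bins, 4 with 50 UMIs in the mirror rim and 5 in segments 1 and 2. DAM (10) became 6 without those rim bins and 1 in myelin-rich bins. Antigen presentation (9) became 5, 0, 4 and 3 without those rim bins, in myelin-rich bins, with 50 UMIs in the mirror rim and in segments 1 and 2. Interferon-stimulated (8) became 15 with 20 UMIs, 14 against the opposite side, 1 in segments 1 and 2, 0 in myelin-rich bins, and 2 without rim bins lacking a reflection, without those at 350 CPM, without segment 3 and with 50 UMIs in the mirror rim. Of its 10 members 5 kept 100 UMIs without segment 3, and 5 did without bins lacking a reflection, while 5 and 7 of the 10 had ratios of at least 2-fold. Homeostatic microglia (4) became 2 with UMIs per bin and with the reflection column moved right, 1 with a threshold of 500 CPM, a width of 24 bins, without rim bins at 350 CPM and without segment 2, and 0 in myelin-rich bins. Single genes that changed sign were Baiap3 (-1.19 against the opposite side, -0.0124 in myelin-rich bins), Wipf3 (0.89) and Bst2 (-0.39) in myelin-rich bins, Kl (-1.10 without choroid bins), Cd59a (-0.26 at 8 bins, -0.17 without choroid bins, -0.11 in segments 1 and 2), Nr4a2 (-0.12 with reflected bins only), Neurod6 (1.14 without segment 4), and, in segments 1 and 2, Bdnf (0.43) and the log2 ratio of Enpp2 (-0.0051). Without choroid bins Cd59a fell below the minimum of 100 UMIs. Kl is 1 of the 9 genes that set the choroid bins, so its change follows from the filter. The other causes were not tested, beyond fewer genes or bins entering by construction. Myelin-rich bins, 1470 in the rim, held too few UMIs for most lists. No paired analysis was possible because each time point had 1 section.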

Other observations

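The growth factor and binding protein list had 17 measured members, of which 6 were at least 2-fold higher and 1 lower. All genes had 3.74% and 0.35%, and the list median was 0.65. Without choroid bins 3 of 16 were higher and 1 lower, against 1.88% and 0.379% of all genes, with a median of 0.14. Its members Igf2 and Igfbp2 were also counted in the fibroblast and meningeal list above. Igfbp5 had 613 CPM in the rim and 309 CPM in the mirror rim, a log2 ratio of 0.99 (0.91 to 1.07), and fell over the bands from 1.58 to 1.15, 0.68 and 0.34. Igf2 and Igfbp2 had ratios of 2.36 and 2.60, which were 0.58 and 0.43 without choroid bins. Of 10 measured members of the iron and metallothionein list 2 were at least 2-fold higher, against 3.74% of all genes, with a median of 0.08. Of these 10 members 5 were above 0, and for 4 the interval lay below 0. Without choroid bins 1 of 10 was at least 2-fold higher, against 1.88% of all genes. Its metal-binding members Mt1 and Mt2 had 0.66 (0.62 to 0.70) and 0.77 (0.70 to 0.84), with Mt1 at 7070 CPM in the core and 1755 CPM in the rim. The iron-releasing enzyme Hmox1 had 119 UMIs in the rim and 36 in the mirror rim. Tgfb1, a cytokine that microglia produce, was at least 2-fold higher in each segment (1.46, 2.10, 1.34 and 1.27). The activity-dependent neurotrophin Bdnf had 201 UMIs against 407, a ratio of -1.22 (-1.48 to -0.98), but was above 0 in segments 1 and 2 and -1.66 in segment 4.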
